A study of Mus musculus with 9 samples.

Results

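The 10 genes described here encode proteins that take long-chain fatty acids into cells or carry them inside cells: Cd36, Slc27a1, Slc27a2, Slc27a4, Vldlr, Fabp1, Fabp2, Fabp4, Fabp5 and Fabp7. They were chosen by gene symbol, and all 10 were found among the 21936 genes of the deposited table. The livers came from 9 male wild-type C57BL/6 mice, bought at 9 weeks of age and fed their diet for 4 weeks after a period of adaptation. Methionine and choline were sufficient in the food of MCS mice, and both were lacking in that of MCD mice. MCS and MCD mice were gavaged with sodium carboxymethylcellulose (CMC-Na), the vehicle. HGPP mice ate the deficient diet and were gavaged with the polysaccharides of the herb Gynostemma pentaphyllum at the high dose of 300 mg/kg. Each group has 3 libraries, 1 per mouse, and errors within a group therefore describe how mice differ. The diet produces steatohepatitis without obesity or insulin resistance, and no group ate the sufficient diet with the polysaccharides.

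Long-chain fatty acids reach the liver bound to albumin or within lipoproteins. CD36, a scavenger receptor, and the fatty acid transport proteins (FATPs, the Slc27 genes) promote their entry, and most FATPs also couple them to coenzyme A. VLDLR, a receptor of the LDL receptor family, takes up triglyceride-rich lipoproteins. In the cytosol, fatty acid-binding proteins (FABPs) hold the fatty acids in solution and carry them between membranes and to the nucleus. FABP1 is one of the most abundant proteins of the hepatocyte cytosol. FABP4 is the FABP of adipocytes and is also made by macrophages and capillary endothelium, FABP5 is found in epidermis and macrophages, FABP2 is the FABP of the intestine, and FABP7, best known from brain glia, is made by mouse Kupffer cells, the resident macrophages of the liver. Several of these genes, Fabp1 and Cd36 among them, are targets of the PPAR nuclear receptors, which bind repeats of the letters AGGTCA.

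Sequences before annotated starts of the genes are shown because that receptor family recognises these letters and because 4 of the members hold them. Of the 10 members 8 are in the RefSeq promoter table (GRCm38.p6). The 250 bases before each annotated start were searched for AGGTCA on both strands (read as TGACCT on the other strand), on both strands for the direct repeat of AGGTCA with 1 base in between (DR1), which contains the first motif, and for TATAAA on both strands. The 8 members have 11 such sequences, since Slc27a1 and Vldlr have several starts. AGGTCA was found in 4 of the 11, or 36.4%, each from a different member, against 14.0% of the 32851 promoter sequences of the table. The exact repeat was found in 0 of the 11 and in 0.0335% of all, and TATAAA in 1 of the 11, or 9.09%, and in 12.4% of all. Only exact matches were counted, so the search could not find a repeat with a changed letter. Fabp1 was the member with more than 1 match: AGGTCA began 67 and 9 bases before the start and TATAAA 30 bases before it. The match 67 bases before the start reads on as TGACCTatggcct, which differs from an exact repeat in 1 letter. The match lay 228 bases before the start in Cd36, 171 in Fabp7 and 220 in Slc27a2. These matches are a description of letters, and binding was not measured. The sequences are written 5′ to 3′ on the strand of the gene, with the matches in capitals. They lie at chr6:71199629-71199878 (plus strand) for Fabp1, chr5:17835897-17836146 (minus strand) for Cd36, chr10:57784673-57784922 (plus strand) for Fabp7 and chr2:126552774-126553023 (plus strand) for Slc27a2. The gene spans given below come from another annotation (GENCODE vM21), whose outer ends differ from these RefSeq starts. The stretches of Cd36 and Slc27a2 lie wholly within those spans, and those of Fabp1 and Fabp7 overlap them in part.
Fabp1: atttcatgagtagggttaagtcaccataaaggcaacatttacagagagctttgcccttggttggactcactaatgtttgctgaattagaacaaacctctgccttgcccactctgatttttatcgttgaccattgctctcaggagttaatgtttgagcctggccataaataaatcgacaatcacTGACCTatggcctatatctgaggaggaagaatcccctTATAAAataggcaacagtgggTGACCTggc
Cd36: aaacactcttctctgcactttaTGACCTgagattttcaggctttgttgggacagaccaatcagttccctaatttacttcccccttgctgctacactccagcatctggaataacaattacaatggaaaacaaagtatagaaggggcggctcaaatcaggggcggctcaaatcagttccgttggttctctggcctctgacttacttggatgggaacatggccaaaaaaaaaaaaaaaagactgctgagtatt
Fabp7: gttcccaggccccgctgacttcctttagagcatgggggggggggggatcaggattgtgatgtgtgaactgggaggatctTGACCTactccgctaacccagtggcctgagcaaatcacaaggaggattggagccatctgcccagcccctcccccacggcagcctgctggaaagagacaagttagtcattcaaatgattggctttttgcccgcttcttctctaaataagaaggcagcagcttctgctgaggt
Slc27a2: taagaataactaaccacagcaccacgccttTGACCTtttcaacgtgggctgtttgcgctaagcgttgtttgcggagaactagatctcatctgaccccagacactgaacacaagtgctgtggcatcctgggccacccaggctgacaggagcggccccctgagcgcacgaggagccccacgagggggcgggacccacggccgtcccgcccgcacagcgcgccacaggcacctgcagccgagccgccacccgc

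Expression is given as FPKM, the fragments per kilobase of a gene's exons scaled to the library's total number of fragments, as the authors deposited it. Depth, recovered from the steps between the values, was 14964993 to 18902846 fragments per library in MCS, 11492654 to 16702367 in MCD and 13355282 to 15691032 in HGPP. The livers were hepatocyte tissue by their markers, with an albumin (Alb) level of 17600 FPKM or more in every library. Genes of the mitochondrial DNA took 8.70% to 14.7% of the summed FPKM in MCS, 13.4% to 31.3% in MCD and 11.6% to 13.2% in HGPP. Groups were compared with limma on log2(FPKM + 0.1), a scale that understates the change of low genes, and p-values were adjusted by Benjamini-Hochberg over the 13817 genes that passed a filter on low values. All 10 members passed it. Over those 13817 genes the median log2 difference was 0.41 for MCD compared with MCS, 0.33 for HGPP compared with MCS and -0.073 for HGPP compared with MCD. When the libraries were scaled by median of ratios, the medians were 0.024, 0.014 and -0.01, which turned the split of called genes from 2707 higher and 353 lower to 1231 and 1019 for MCD compared with MCS, and from 2260 and 342 to 704 and 672 for HGPP compared with MCS. The differences below are to be read against those medians. The 3 comparisons share groups, so they are not independent of each other. In whole liver, fewer cells of a type and less RNA per cell cannot be told apart.

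On the FPKM scale the members spanned more than 3 orders of magnitude. In the MCS livers Fabp1 had a mean of 5536 ± 1063 FPKM (SD, n = 3) and was the gene with rank 10 of all 21936. Slc27a2 followed with rank 111 and Fabp2 with rank 415, while Fabp5, Fabp7, Fabp4 and Vldlr had means of 0.87, 1.31, 1.80 and 0.60 FPKM and ranks from 7721 to 10173. The length behind each FPKM is that of all annotated exons merged, 553 bases for Fabp1 but 4489 for Fabp4 and 3567 for Fabp5, which lowers the level per length of the latter pair. Fabp5 rested on 43 to 62 fragments and Fabp7 on 11 to 58 in the MCS livers.

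**Figure D1:**
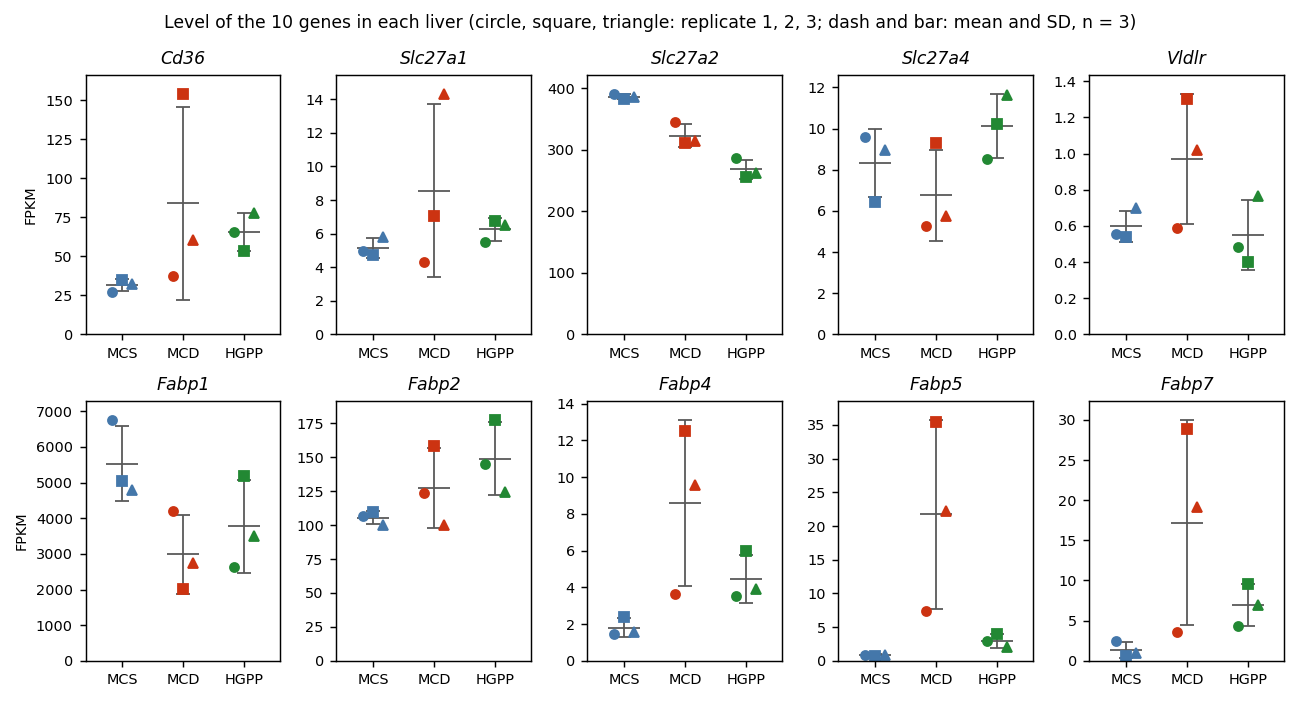
FPKM (linear vertical axes from 0) of each of the 10 genes in the 9 livers, with 3 points per group and the group mean and SD as dash and bar. Fabp5 lies between 0.77 and 0.92 FPKM in MCS, between 7.44 and 35.4 in MCD and between 1.98 and 3.94 in HGPP, and Slc27a2 steps down from MCS to MCD to HGPP without overlap.

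MCD compared with MCS asks what the deficient diet did to these genes. Fabp4, Fabp5 and Fabp7 rose 4.15-fold to 18.8-fold, and no member fell past the adjusted p. Cd36 lay higher and Fabp1 lower in every MCD liver than in any MCS liver, and neither passed the test. The counts were 3 of 10 higher and 0 of 10 lower, against 19.6% of all tested genes called higher and 2.55% called lower. By non-overlap of the groups 4 members lay above and 2 below, against 38.1% and 5.08% of all tested genes. The median of the members was 0.56, beside 0.41 over all genes.

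Fabp5 (ENSMUSG00000027533, GRCm38 chr3:10012548-10016607) moved furthest among the members. Its level was 0.92, 0.77 and 0.92 FPKM in the MCS livers and 7.44, 35.4 and 22.3 FPKM in the MCD livers (replicates 1, 2 and 3 in each sentence of this kind). The lowest MCD liver stood far above the highest MCS liver, and the MCD livers themselves were spread widely, with replicate 1 the lowest. The log2 fold change was 4.23 ± 0.47 (SE, limma, adjusted p = 0.001035), 18.8-fold, and the gene had rank 45 by p among all tested. It stayed called under every alternative tried. Of the 100-base stretches of its transcripts 2.19% also occur in the processed pseudogenes Gm14328 and Gm6166.

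Fabp7 (ENSMUSG00000019874, chr10:57784881-57788450) stood at 2.45, 0.56 and 0.91 FPKM in MCS and at 3.55, 28.9 and 19.2 FPKM in MCD. The groups did not overlap, but MCD replicate 1 lay close to MCS replicate 1. The median of the 8 Kupffer cell markers, as log2 over the MCS mean, was also highest in that MCS liver, at 0.97 against -0.67 and -0.44. The lectin receptor Clec4f was at 47.6 FPKM there against 17.3 and 17.6, and the scavenger receptor Marco at 25.2 FPKM against 2.93 and 2.92. Folr2, of the same list, was lowest in that liver, at 0.068 FPKM against 0.12 and 0.086. The log2 fold change of Fabp7 was 3.41 ± 0.71 (SE, limma, adjusted p = 0.009733), and without MCD replicate 3 it missed the threshold at 3.11 (limma, adjusted p = 0.05056).

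Fabp4 (ENSMUSG00000062515, chr3:10204088-10208576), a neighbour of Fabp5 on the chromosome, was measured at 1.45, 2.38 and 1.56 FPKM in MCS and at 3.64, 12.5 and 9.60 FPKM in MCD. Again MCD replicate 1 was the lowest of its group and still above every MCS liver. The log2 fold change was 2.06 ± 0.42 (SE, limma, adjusted p = 0.009006), 4.15-fold. Markers of adipocytes, where the gene is best known, were close to absent: the 5 markers summed to at most 0.30 FPKM in any liver, leptin (Lep) was at 0 in all 9, and none of the 5 passed the filter. With no filter on low values the adjusted p became 0.05737 for Fabp4 and 0.0693 for Fabp7 (limma), and both calls were lost.

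Cd36 (ENSMUSG00000002944, chr5:17781690-17888801) read 27.2, 35.1 and 32.4 FPKM in the MCS livers against 37.4, 154 and 60.7 FPKM in the MCD livers. The MCD range was far wider than the MCS range, and replicate 1 lay just above it. The log2 fold change of 1.17 ± 0.42 (SE) did not pass (limma, adjusted p = 0.07001, with a 95% interval from 0.23 to 2.10). Without MCD replicate 1 it was 1.62 (limma, adjusted p = 0.009483), and without MCD replicate 2 it was 0.60 (limma, adjusted p = 0.114). It also passed in one fit over all 9 libraries (limma, adjusted p = 0.04718), with array weights (limma, adjusted p = 0.03311) and without the mitochondrial genes (limma, adjusted p = 0.03908), and after median-of-ratios scaling it was 0.75 (limma, adjusted p = 0.2202).

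Fabp1 (ENSMUSG00000054422, chr6:71199827-71205023) was at 6755, 5049 and 4803 FPKM in MCS and at 4199, 2013 and 2754 FPKM in MCD. Every MCD liver was below every MCS liver, with replicate 1 nearest to them. The log2 fold change was -0.94 ± 0.33 (SE, limma, adjusted p = 0.06717). It passed without MCD replicate 1 at -1.22 (limma, adjusted p = 0.01561) and with a filter at 1 FPKM, TPM, array weights or voom (limma, adjusted p from 0.03506 to 0.04847). Most markers of hepatocytes, the cells that make FABP1, were also lower: all 6 had negative log2 fold changes with a median of -0.88, 2 of them called lower. Apoa1 and Ahsg, at -0.086 and -0.067, barely differed and overlapped MCS. Their summed level was 63280 to 78900 FPKM in MCS and 30920 to 63620 FPKM in MCD, and their part in the Fabp1 difference was not tested. Fabp1 made up 97.8% to 98.4% of the summed FPKM of the 10 FABP genes in MCS and 89.5% to 96.8% in MCD.

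The FATPs and the lipoprotein receptor gave smaller differences, and none passed. Slc27a2 (FATP2, a transporter and very long-chain acyl-CoA synthetase of hepatocytes; ENSMUSG00000027359, chr2:126552407-126588243) was tight within groups, at 391, 383 and 385 FPKM in MCS and 345, 311 and 314 FPKM in MCD. The groups did not overlap, yet the log2 fold change was only -0.26 ± 0.19 (SE, limma, adjusted p = 0.3483). The SE from limma also draws on the variance of other genes, and the SDs of Slc27a2 itself were 4.35 FPKM in MCS and 18.45 FPKM in MCD. Of its exon bases 11.2% overlap the lincRNA Gm26697 on the opposite strand, and the sources used here do not say whether the counting used strand. Slc27a1 (FATP1; ENSMUSG00000031808, chr8:71568882-71587302) had 4.94, 4.71 and 5.82 FPKM in MCS and 4.32, 7.05 and 14.3 FPKM in MCD, where replicate 3 alone was far out (log2 0.56 ± 0.37 SE, limma, adjusted p = 0.2972). This was the liver with 31.3% of its FPKM in mitochondrial genes. Slc27a4 (FATP4; ENSMUSG00000059316, chr2:29802634-29817522) overlapped between 9.59, 6.44 and 8.94 FPKM in MCS and 5.27, 9.30 and 5.74 FPKM in MCD (log2 -0.32 ± 0.27 SE, limma, adjusted p = 0.4157). Vldlr (ENSMUSG00000024924, chr19:27216484-27254231) was the lowest member in MCD, with 0.59, 1.30 and 1.02 FPKM beside 0.56, 0.54 and 0.70 FPKM in MCS (log2 0.56 ± 0.34 SE, limma, adjusted p = 0.2487). Fabp2 (ENSMUSG00000023057, chr3:122895072-122899506) also overlapped, with 107, 109 and 100.3 FPKM in MCS and 124, 159 and 100.3 FPKM in MCD (log2 0.25 ± 0.22 SE, limma, adjusted p = 0.4222). Enterocyte markers, of the cells where Fabp2 is best known, summed to 0.13 to 0.88 FPKM over all livers, and Sis and Alpi were at 0 in all 9. The signs of Fabp2 and Vldlr are not stable: Fabp2 became -0.17 with median-of-ratios scaling and Vldlr -0.24 with quantile normalization.

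**Figure D2:**
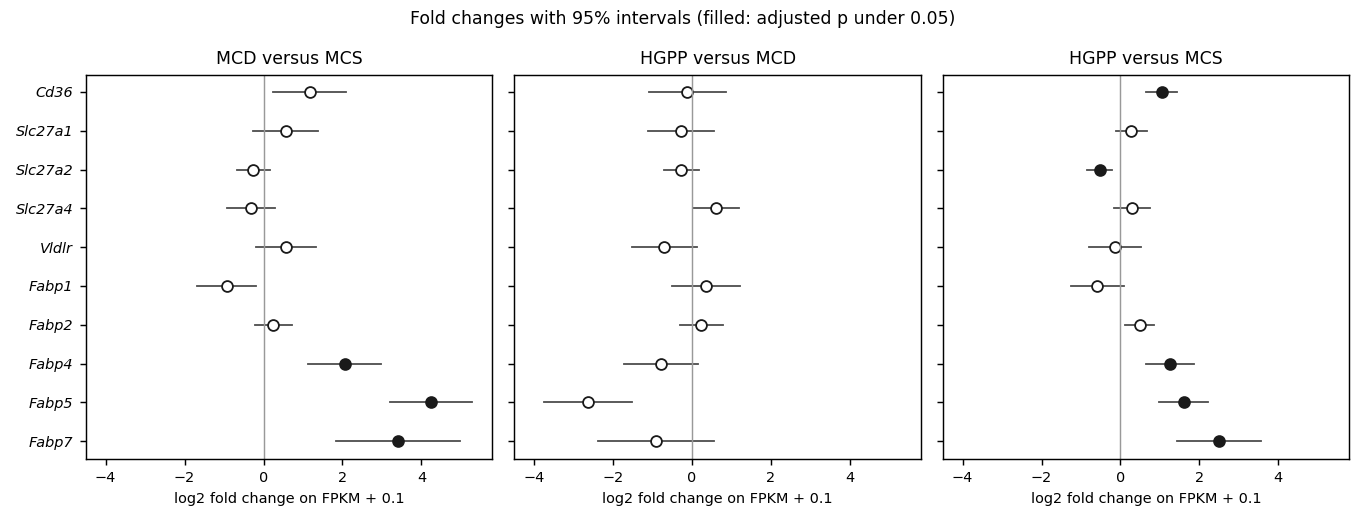
Log2 fold change on FPKM + 0.1 (horizontal axis) of the 10 genes in the 3 comparisons, with 95% intervals from limma as lines and filled points for an adjusted p under 0.05. Fabp4, Fabp5 and Fabp7 are filled against MCS in both diet groups, and no point is filled for HGPP compared with MCD, where Fabp5 lies furthest from 0 at -2.63.

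HGPP compared with MCD asks what the polysaccharides changed in livers on the deficient diet. No member passed the adjusted p in either direction, as was true of nearly all genes: 0% of tested genes were called higher and 0.0217%, or 3 genes, lower (limma), while 1891 genes and 2 members, Fabp5 and Slc27a4, had an unadjusted p under 0.05. At a looser threshold, a log2 change of more than 1 in size and a p under 0.05 before adjustment, 1 member (Fabp5) was lower and 0 were higher, against 5.17% and 0.919% of all tested genes. By non-overlap 2 members, Fabp5 and Slc27a2, lay below and 0 above, against 11.3% and 5.83%. The median of the members was -0.28, beside -0.073 over all genes.

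Fabp5 had 2.88, 3.94 and 1.98 FPKM in the HGPP livers, and the highest of these was below the lowest MCD liver at 7.44. Its log2 fold change was -2.63 ± 0.50 (SE), which is 0.161 of the MCD level, with a 95% interval from -3.75 to -1.52. The unadjusted p of 0.0004113 gave rank 41 of 13817, and after adjustment the value was 0.1291 (limma). Without MCD replicate 1, the MCD liver nearest to the other groups, the log2 fold change was -3.27 (limma, adjusted p = 0.003581), and with array weights, which lower the weight of aberrant libraries, -2.77 (limma, adjusted p = 0.02963). Leaving out MCD replicate 2 gave -2.15 (limma, adjusted p = 0.08497).

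Fabp7 was at 4.37, 9.61 and 6.93 FPKM in HGPP and Fabp4 at 3.52, 5.98 and 3.90 FPKM. Both ranges lay around or above MCD replicate 1 and below MCD replicates 2 and 3, so the groups overlapped. The log2 fold changes were -0.91 ± 0.65 for Fabp7 (SE, limma, adjusted p = 0.5472) and -0.79 ± 0.42 for Fabp4 (SE, limma, adjusted p = 0.4301). Without MCD replicate 1 both passed, at -1.81 (limma, adjusted p = 0.02367) and -1.31 (limma, adjusted p = 0.04104), and the number of members called went from 0 to 3. The same library decided the count over all genes, 443 without it and 3 with it.

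Cd36 showed no shift between these groups that its spread could resolve. The HGPP livers read 65.8, 53.3 and 78.0 FPKM, inside the MCD range of 37.4 to 154, and the log2 fold change was -0.12 ± 0.44 (SE, limma, adjusted p = 0.9245), with a 95% interval from -1.10 to 0.86. Its sign turned to 0.44 without MCD replicate 2, to 0.022 without HGPP replicate 2 and to 0.065 with array weights. Fabp1 had 2622, 5192 and 3502 FPKM in HGPP, a range that overlapped MCD (log2 0.34 ± 0.39 SE, limma, adjusted p = 0.709), and Fabp2 had 145, 177 and 124 FPKM (log2 0.23 ± 0.24 SE, limma, adjusted p = 0.6835).

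Slc27a2 was lower again in HGPP, at 287, 256 and 262 FPKM, with no overlap with MCD (log2 -0.27 ± 0.20 SE, limma, adjusted p = 0.5626). Slc27a4 went the other way, to 8.54, 10.2 and 11.6 FPKM (log2 0.61 ± 0.26 SE, limma, unadjusted p = 0.04193, adjusted p = 0.3487), with 1 MCD liver at 9.30 FPKM inside the HGPP range. Vldlr was at 0.48, 0.40 and 0.77 FPKM (log2 -0.70 ± 0.37 SE, limma, adjusted p = 0.4255). Slc27a1 was at 5.49, 6.77 and 6.50 FPKM (log2 -0.28 ± 0.37 SE, limma, adjusted p = 0.7602), and its sign turned to 0.17 without MCD replicate 3.

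HGPP compared with MCS sets livers with both the deficient diet and the polysaccharides against the control livers. Cd36, Fabp4, Fabp5 and Fabp7 rose and Slc27a2 fell. These 4 higher and 1 lower of 10 stand beside 16.4% and 2.48% of all tested genes, and by non-overlap 5 members lay above and 1 below, against 36.7% and 4.87%. The median of the members was 0.39, beside 0.33 over all genes. The fold changes were 2.06-fold for Cd36 (log2 1.05 ± 0.17 SE, limma, adjusted p = 0.006057), 2.40-fold for Fabp4 (log2 1.26 ± 0.27 SE, limma, adjusted p = 0.01527), 3.03-fold for Fabp5 (log2 1.60 ± 0.27 SE, limma, adjusted p = 0.006769) and 5.63-fold for Fabp7 (log2 2.49 ± 0.47 SE, limma, adjusted p = 0.009813). The HGPP livers were closer to each other than the MCD livers were, and the SE of Cd36 was 0.17 here against 0.42 for MCD compared with MCS at a like fold change.

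Not all of these calls hold. Slc27a2 fell by 0.53 on the log2 scale (SE 0.14; limma, adjusted p = 0.02945), and its call was lost with any 1 library left out except HGPP replicate 1, with quantile normalization, in one fit over 9 libraries and without the variance trend (limma, adjusted p from 0.05654 to 0.08641), although no HGPP liver overlapped an MCS liver. Cd36 missed the threshold after median-of-ratios scaling, at 0.69 (limma, adjusted p = 0.06038), and in one fit over 9 libraries (limma, adjusted p = 0.1056). Fabp4 missed it without a filter (limma, adjusted p = 0.05979), with quantile normalization (0.06077), in one fit (0.06556), without MCS replicate 3 (0.05249) and without HGPP replicate 2 (0.06029). Fabp7 missed it without a filter (limma, adjusted p = 0.06442) and without HGPP replicate 2 (0.05127). Leaving out HGPP replicate 2 or MCS replicate 3 therefore lowered the number of members called from 5 to 2 or 3. Fabp5 stayed called in all of them.

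Fabp2 lay above MCS in all 3 HGPP livers without passing (log2 0.48 ± 0.16 SE, limma, adjusted p = 0.06205), and passed as TPM (limma, adjusted p = 0.04416) or without the mitochondrial genes (limma, adjusted p = 0.04325). Fabp1 (log2 -0.59 ± 0.30 SE, limma, adjusted p = 0.1839), Slc27a1 (0.27 ± 0.17, adjusted p = 0.2761), Slc27a4 (0.29 ± 0.20, adjusted p = 0.3181) and Vldlr (-0.14 ± 0.29, adjusted p = 0.765) did not pass. Slc27a1 became -0.073 and Slc27a4 -0.059 with median-of-ratios scaling.

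Markers of monocyte-derived and lipid-associated macrophages changed in the same directions as Fabp4, Fabp5 and Fabp7, and so did most stellate cell markers. These directions were not particular to those cells. Of 13 genes of the mitochondrial DNA, 12 were higher in MCD than in MCS (median 1.02). In HGPP compared with MCD 12 were lower (median -0.85). The medians of the glia and Schwann cell markers were 0.48 and -0.35 in the same order. Fabp1 and Fabp2 were at log2 fold changes of -0.94 and 0.25 in MCD compared with MCS and 0.34 and 0.23 in HGPP compared with MCD. Of 10 markers of monocyte-derived and lipid-associated macrophages 9 were called higher in MCD than in MCS, with a median log2 fold change of 3.78. Their summed level was 23.7 to 27.6 FPKM in MCS, 145 to 732 FPKM in MCD and 74.1 to 222 FPKM in HGPP. In HGPP compared with MCD all 10 had negative log2 fold changes with a median of -1.83, and 0 were called (limma). No marker of the list was at 0 in a whole group: Trem2, a lipid receptor of these macrophages, was at 0.12 to 0.18 FPKM in MCS, 3.33 to 16.6 FPKM in MCD and 1.29 to 2.84 FPKM in HGPP. The 8 Kupffer cell markers summed to 38.2 to 141 FPKM in MCS, 95.2 to 407 FPKM in MCD and 131 to 217.5 FPKM in HGPP, with 3 called higher in MCD than in MCS and a median of -0.088 in HGPP compared with MCD. The 8 endothelial markers summed to 28.5 to 42.9, 28.6 to 63.1 and 40.1 to 68.2 FPKM in the same order, with 0 called in MCD compared with MCS (limma). Markers of glia and Schwann cells, other cells that make FABP7, summed to 0.44 to 0.58 FPKM in MCS, 1.02 to 1.49 FPKM in MCD and 0.77 to 0.96 FPKM in HGPP, with 1 of 3 tested called higher in MCD compared with MCS. Of 7 stellate cell markers 3 were called higher in that comparison and 0 lower, with a median log2 fold change of 0.95. They summed to 19.2 to 28.3 FPKM in MCS, 37.55 to 74.75 FPKM in MCD and 27.3 to 47.65 FPKM in HGPP. In HGPP compared with MCD 6 of the 7 had negative log2 fold changes, with a median of -0.51 and 0 called (limma). The part of these cells in the differences of the members was not tested.

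Fabp5, Fabp7, Fabp4 and Cd36 were also set against the markers liver by liver, a comparison chosen after the values were seen and given with no test. Each gene and the median of a marker list were taken as log2 over their MCS means. Against the 10 macrophage markers the difference of Fabp5 was -0.25 to 0.33 in the MCS livers, 0.27 to 0.65 in the MCD livers and -0.60 to -0.27 in the HGPP livers. Fabp5 lay above the median of these markers in every MCD liver and below it in every HGPP liver. Its MCS range overlapped the MCD range, however. The markers themselves ranged from a log2 fold change of 1.655 (Ly6c2) to 7.453 (Gpnmb) in MCD compared with MCS, around the 4.23 of Fabp5. For Fabp7 the difference was -0.91 to 0.05 in MCD and 0.01 to 1.04 in HGPP, both within the spread of the MCS livers alone, -0.95 to 1.14. Fabp4 stood below the median of these markers, at -1.88 to -1.51 in MCD and -0.95 to -0.41 in HGPP. Its MCS range was -0.22 to 0.32. Cd36 stood lower still in MCD, at -3.31 to -2.25, and at -1.90 to -0.21 in HGPP, against -0.17 to 0.30 in MCS. The picture depends on the list. Against the 8 Kupffer cell markers Cd36 was at -0.30 to -0.045 in MCD and -0.90 to 0.004 in HGPP, inside its MCS range of -1.18 to 0.83. Fabp7 lay above the median of the Kupffer cell markers, at 1.15 to 2.76 in MCD and 0.80 to 1.36 in HGPP. Its MCS range was -0.18 to 0.19. Fabp5 was at 2.51 to 3.28 in MCD and -0.20 to 0.52 in HGPP, against -0.90 to 0.52 in MCS, and Fabp4 at 0.43 to 1.13 and -0.20 to 0.052, against -1.23 to 1.09. Against the 8 endothelial markers the differences in MCD were 3.22 to 4.37 for Fabp5, 1.87 to 3.77 for Fabp7, 1.27 to 1.94 for Fabp4 and 0.41 to 1.46 for Cd36. In HGPP they were 0.59 to 1.49, 1.77 to 2.19, 0.59 to 0.88 and -0.069 to 0.93 in the same order. MCD replicate 1 was the lowest MCD liver in the macrophage markers as well as in these 4 genes, at 2.52 against 4.55 and 4.26.

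**Figure D3:**
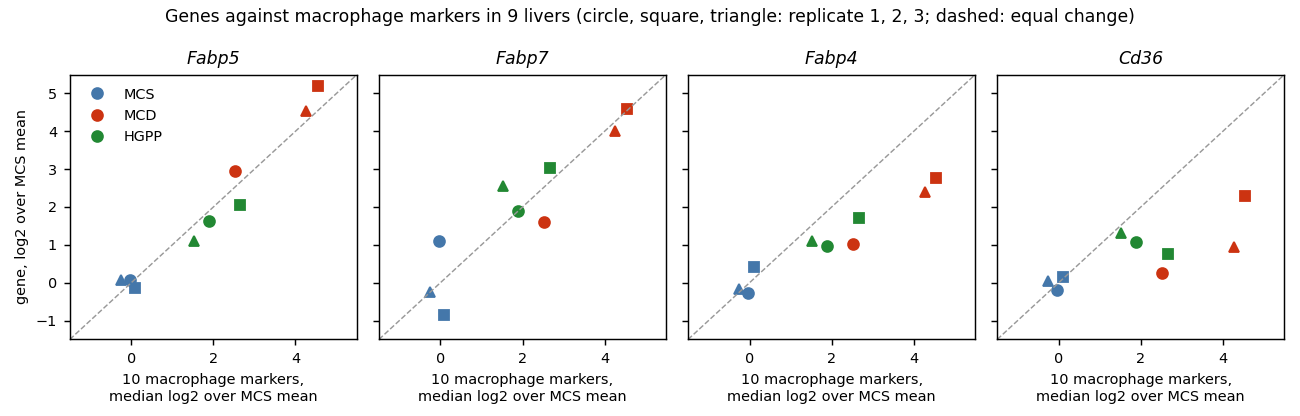
Log2 level over the MCS mean of Fabp5, Fabp7, Fabp4 and Cd36 (vertical axes) against the median log2 level over the MCS mean of 10 macrophage markers (horizontal axes), 1 point per liver, with a dashed line where both change equally. Fabp5 lies above the line in the 3 MCD livers and below it in the 3 HGPP livers, and Fabp4 and Cd36 lie below it in all 6.

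The genes most like each member across the 9 livers were taken as those with the smallest root mean square difference of log2 values centred on each gene's own mean, among 9997 genes with a mean of at least 1 FPKM. For Fabp5 these were Itgax (CD11c, an integrin of dendritic cells and inflammatory macrophages; difference 0.26), Csf2rb2, a cytokine receptor subunit (0.34), and Lpl, the lipase that frees fatty acids from lipoproteins (0.35), while Fabp5 itself varied by 1.84 about its mean. For Fabp7 they were C3ar1, the receptor of complement C3a (0.37), Cd68, a macrophage lysosomal protein (0.41), and Ccl6, a chemokine (0.41), against a variation of 1.71. Fabp4 was closest to Cd93, Cerk and Flna (0.20 each, variation 0.99) and Cd36 to Maged2, Lipo3 and Gyg (0.21 to 0.22, variation 0.73). The hepatocyte genes had other neighbours: Fabp1 had Nat8f1, Gstt1 and Cyp2d10, a glutathione transferase and a cytochrome P450 among them (0.27 to 0.29, variation 0.53), and Slc27a2 had Sephs2, Cmtm8 and Fah, the last an enzyme of tyrosine breakdown (0.10 to 0.11, variation 0.22). Fabp2 was closest to Tsfm, Rpl15 and Eif4a1, which serve translation (0.08 to 0.09, variation 0.28). Slc27a1 was closest to Tbc1d17, Slc27a4 to Mlf2 and Vldlr to Bhlhb9. All points share the 9 libraries and their depth, so likeness is a description.

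Among the relatives of the members, Slc27a5 (FATP5, the bile acyl-CoA synthetase and a fatty acid transporter of liver) had the smallest p in MCD compared with MCS. It was at 189, 148 and 211 FPKM in MCS, 70.0, 62.8 and 75.9 FPKM in MCD and 80.9, 65.5 and 77.5 FPKM in HGPP. All livers on the deficient diet were far below the MCS livers, and MCD and HGPP overlapped. It fell by 1.38 on the log2 scale in MCD (SE 0.21; limma, adjusted p = 0.002872) and by 1.28 in HGPP (SE 0.17; limma, adjusted p = 0.002512), both against MCS. Within the 6 FATP genes the share of Slc27a5 in the summed FPKM was 27.3% to 34.5% in MCS and 16.1% to 18.5% in MCD, and that of Slc27a2 was 63.0% to 70.6% and 76.45% to 81.1%. Of the 8 other FABP and FATP genes 4 passed the filter, 0 were called higher and 1 lower, with a median of 0.32, and Fabp6, Fabp9 and Pmp2 were at 0 in all livers. Fabp12, Slc27a3 and Fabp3 were not called (limma, adjusted p = 0.1183, 0.06738 and 0.7561).

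The proteins that act next, the acyl-CoA synthetases and acyl-CoA carriers, did not move together. Of 6 tested 1 was called higher and 1 lower in MCD compared with MCS, with a median of -0.34. Acsl4, which prefers arachidonic acid, rose from 7.67, 5.25 and 6.13 FPKM in MCS to 10.3, 20.6 and 11.0 FPKM in MCD (log2 1.07 ± 0.29 SE, limma, adjusted p = 0.02856) and stood at 22.6, 23.0 and 31.3 FPKM in HGPP, above every MCD liver. It was called against MCS (log2 2.00 ± 0.20 SE, limma, adjusted p = 0.0006873) but not against MCD (log2 0.93 ± 0.29 SE, limma, adjusted p = 0.247). Dbi, the acyl-CoA-binding protein, fell by 0.66 in MCD compared with MCS (SE 0.21; limma, adjusted p = 0.04954), and in HGPP it overlapped MCS (log2 -0.04 ± 0.19 SE, limma, adjusted p = 0.8883). Scp2, a lipid carrier, and Acsl1, the main long-chain synthetase of hepatocytes, were at -0.62 and -0.77 in MCD compared with MCS (limma, adjusted p = 0.05835 and 0.06376).

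Among 13 lipoprotein receptors, lipases and lipase regulators 1 was called higher and 2 lower in MCD compared with MCS, with a median of -0.29. Lpl read 2.07, 0.98 and 1.07 FPKM in MCS, 12.0, 52.0 and 25.5 FPKM in MCD and 5.46, 6.68 and 4.65 FPKM in HGPP. The 3 groups did not overlap, in the same order as for Fabp5. It rose in MCD (log2 4.17 ± 0.47 SE, limma, adjusted p = 0.001063) and in HGPP (log2 2.01 ± 0.29 SE, limma, adjusted p = 0.003568) compared with MCS, and HGPP compared with MCD gave -2.16 ± 0.44 (SE, limma, adjusted p = 0.1435). Hepatic lipase, Lipc, fell by 1.18 (SE 0.25; limma, adjusted p = 0.01016) and Angptl8, a secreted inhibitor of lipoprotein lipase, fell by 1.53 (SE 0.35; limma, adjusted p = 0.01379) in MCD compared with MCS. Lrp8, a receptor related to Vldlr, did not pass (log2 1.21 ± 0.42 SE, limma, adjusted p = 0.06188). Of the 3 other uptake proteins, Got2, Cav1 and Mfsd2a, 0 were called in MCD compared with MCS (limma), with a median of 0.34, and Mfsd2a, a transporter of lysophosphatidylcholine, was the 1 called higher in HGPP compared with MCS (log2 1.20 ± 0.15 SE, limma, adjusted p = 0.002048).

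None of the 9 lipid-sensing nuclear receptors and partners was called in any of the 3 comparisons (limma), with 3 of them under an unadjusted p of 0.05 in MCD compared with MCS: Rxra at -0.57, Ppard at 0.70 and Hnf4a at -0.64 (limma, adjusted p = 0.06017, 0.1228 and 0.131). Ppara, the PPAR of hepatocytes, named for its role and outside the rule for named genes, was at -0.27 ± 0.28 (SE, limma, adjusted p = 0.4971). Of 13 PPAR target genes 2 were called higher and 0 lower in MCD compared with MCS, with a median of 0.37, close to that of all genes. These were Cidec, which makes lipid droplets fuse (log2 2.98 ± 0.44 SE, limma, adjusted p = 0.002614), and Pdk4, a kinase that restrains pyruvate oxidation (log2 2.51 ± 0.51 SE, limma, adjusted p = 0.008784), while the fatty acid hydroxylase Cyp4a10 lay at -0.59 (limma, adjusted p = 0.1036). In HGPP compared with MCS 5 of the 13 were called higher and 0 lower. Cidec was at 22.6, 99.3 and 41.6 FPKM in MCD and 63.6, 115 and 108 FPKM in HGPP, against 4.79 to 6.96 FPKM in MCS. Unlike those of Fabp5, its MCD and HGPP levels overlapped (log2 1.03 ± 0.47 SE in HGPP compared with MCD, limma, adjusted p = 0.3724). In HGPP compared with MCD 0 genes of these 6 lists were called (limma), and their medians lay between -0.12 and 0.40.

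**Figure D4:**
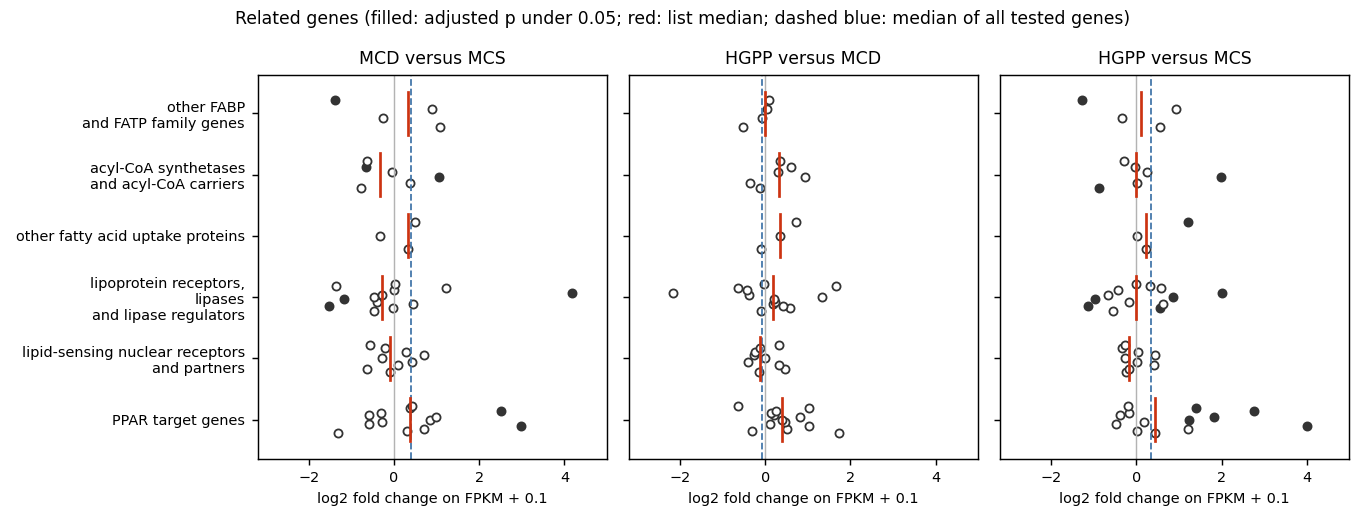
Log2 fold change on FPKM + 0.1 (horizontal axes) of the tested genes of 6 related lists in the 3 comparisons, 1 point per gene, filled for an adjusted p under 0.05, with the list median in red and the median of all tested genes as a dashed blue line. For MCD compared with MCS, Lpl lies furthest to the right at 4.17 and Angptl8 furthest to the left at -1.53, and no point is filled for HGPP compared with MCD.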

How the data were processed

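Liver RNA of 9 mice, 3 each in MCS, MCD and HGPP, was sequenced. FPKM values of all libraries were deposited by the authors in 1 table, for which reads had been trimmed, aligned and counted, and counts divided by length and depth. The methods of the paper name Cutadapt and HTSeq for this, but featureCounts 2.0.0, STAR 2.7.7a and fastp 0.20.1 stand in the submitters' processing notes. No source used here names the genome build. With merged exon lengths of GENCODE vM21 (GRCm38), 98.13% of 115802 values of up to 1000 reads were whole reads within 0.02, which gave the depth per library, and coordinates are on that build.

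The filter kept 13817 genes that reached 0.1 FPKM in at least 3 libraries. Pairs of groups were compared with limma 3.58.1 (lmFit, eBayes with trend) under R 4.3.3, with log2(FPKM + 0.1) as the response, p-values adjusted by Benjamini-Hochberg and a threshold of 0.05. The code was tested on simulated data. Figures were drawn with matplotlib 3.10.9, and tables were made with numpy 2.4.6 and pandas 2.3.3 (Python 3.11.15). All 10 members are named, with up to 4 genes of each of 6 pathway lists, those with the smallest p in MCD compared with MCS, and the 3 genes most like each member. The values of 1 gene that this rule names are not reported here. The 8 lists of cell type markers are given by counts, medians or levels, and not every list by all of these. The members and lists were chosen with earlier results of these data known. Promoters came from RefSeq. Other settings tried were no filter or one at 1 FPKM, pseudocounts of 0.01 and 1, TPM, quantile normalization, median-of-ratios scaling, array weights, a fit of all 9 libraries at once, no variance trend, a block by replicate number and leaving out each library. After the values were seen, voom on the recovered reads and a fit without mitochondrial genes were added.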

Additional observations from a re-analysis of the deposited data

How the results depend on the processing

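Depth limits Fabp7, Fabp5 and Vldlr most, and with 3 mice a group an uncalled member is not shown to be unchanged. The members called were 3 (MCD compared with MCS), 0 (HGPP compared with MCD) and 5 (HGPP compared with MCS). They became 1 and 3 in the first and the last without a filter, 5 and 1 in the first and the second with array weights, and 3 and 2 in the last with quantile normalization and one fit over 9 libraries. With 1 library left out they ranged from 2 to 5, from 0 to 3 and from 2 to 5. All genes called, 3060, 3 and 2602 in that order, became 1795, 0 and 1567 without a filter, 1258, 0 and 1201 with quantile normalization, and 1248 to 3629, 0 to 443 and 1025 to 2025 with 1 library left out. HGPP compared with MCD gave 5 with TPM, 16 in one fit, 244 with array weights and 1 with voom, and HGPP compared with MCS gave 1376 with median-of-ratios scaling and 1420 in one fit. Fabp5 kept its call against MCS in both comparisons under every alternative.

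Signs turned in uncalled members. In MCD compared with MCS, Fabp2 became -0.17 with median-of-ratios scaling and Vldlr -0.24 with quantile normalization. In HGPP compared with MCD, Cd36 became 0.065 with array weights, and with 1 library left out Cd36 ranged from -0.58 to 0.44 and Slc27a1 from -0.68 to 0.17. In HGPP compared with MCS, Slc27a1 became -0.073 and -0.03 and Slc27a4 -0.059 and -0.007 with these scalings, and Vldlr ranged from -0.36 to 0.033 with 1 library left out. The cause was not tested, except that leaving out a library leaves fewer samples.

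The labels share replicate numbers but do not say that these pair the mice. Same-numbered deviations from the group means correlated between -0.34 and 0.30, with 1 of 9 above 0.1, that of MCD and HGPP replicate 1. With 3 libraries a group these correlations cannot exclude a pairing or a shared batch. With the replicate block 1876, 14 and 1585 genes were called, and among the members only the call of Slc27a2 in HGPP compared with MCS was lost (-0.53, limma, adjusted p = 0.07214).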
